A study of Homo sapiens with 3 samples.

Results

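MYC and genes of ribosome biogenesis, 38 genes in all, were examined in PLC-PRF-5, an established human hepatoma cell line, after treatment with the sorafenib probe, with sorafenib or with DMSO for 24 h. Sorafenib is a kinase inhibitor used against liver cancer, and the sorafenib probe is a version of this drug made by the study for labelling its protein targets, with a light-activated crosslinking group and an alkyne handle. Each compound was used at 10 μM according to the sample descriptions but at 50 μM according to their treatment protocol, and DMSO is the solvent control. Total RNA was hybridised to 1 Illumina beadchip array per treatment. The labels do not say how many cultures each array holds or whether the arrays share a chip. The 38 genes were chosen by their symbols in the array annotation, older symbols included, and the choice uses no measured value as a criterion.

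Of the 38 genes, 34 had at least 1 array probe in the annotation (57 array probes), and 32 were above background on at least 1 array, of 10396 genes in all. Above background means a detection value under 0.01 against the negative controls of the same array. GNL3, WDR43, DDX18 and EBNA1BP2 had no array probe named in the annotation, so their expression was not analysed here. Array probes that passed this on 1 array or more are called kept. POLR1A and NPM1, the gene of the nucleolar protein nucleophosmin, were not well above background on any array. The 1 array probe of NPM1 had 22.5 with the sorafenib probe, 23.1 with sorafenib and 23.2 with DMSO. This array probe alone is named for NPM1, so its low reading does not show that the gene is low in these cells. RRP9 was above background only with the sorafenib probe, and the other 31 genes were above background on all 3 arrays. The brightest array probe stood for each gene, and its intensity was background corrected, quantile normalized between arrays and put on a log2 scale. A treatment without a second array has no measure of spread, which is why p-values are not given, and the 1 DMSO array serves as the control of both compounds. Of the 13 annotated markers of hepatocytes and hepatoma, 10 were not well above background, AFP among them, so the cell line's label has only limited backing in these arrays.

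Ribosome production starts in the nucleolus, where RNA polymerase I copies the ribosomal RNA genes into a long precursor. Small nucleolar ribonucleoproteins (snoRNPs) modify this precursor, and processing factors cut and fold it into the small and large subunits. MYC is a transcription factor that binds DNA together with MAX at the letters CACGTG, called an E-box, and it is known to raise the genes of many of these factors.

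The E-box letters were looked up in the promoters of these genes, because they are the sequence through which MYC and MAX are known to act. RefSeq promoters (build GRCh38.p14) run from 250 bases before to 50 bases after each start, and 31 of the 38 genes were matched by symbol. CACGTG, which reads the same on both strands, was present in a promoter of 13 of these 31 genes (41.9%). The same letters were present for 8.77% of all 27305 genes with a promoter in the table, and for 13.0% of the 8412 such genes measured on the arrays. Among genes of the set measured on the arrays, 10 had a match and 16 had a promoter but no match. Of the 14 matches, 12 began within 50 bases of the start. UTP14A, NOP14 and NOP2 were also measured and had a match, but their windows are not written out. The windows of 30 bases below are written 5′ to 3′ on the strand of the gene, with the E-box in capitals, for measured genes of each step of the pathway that had a match.
DDX21: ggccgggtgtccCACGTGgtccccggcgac
FBL: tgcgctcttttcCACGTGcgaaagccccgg
RRP9: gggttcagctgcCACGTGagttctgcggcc
GAR1: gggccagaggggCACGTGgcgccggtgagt
UTP4: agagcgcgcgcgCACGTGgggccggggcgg
PES1: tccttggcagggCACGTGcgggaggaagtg
MRTO4: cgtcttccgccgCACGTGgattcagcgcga
The DDX21 window lies at chr10:68956604-68956633 on the plus strand, and its E-box starts at position -31 from the gene's start. The FBL window lies at chr19:39846356-39846385 on the minus strand, with the E-box at position 7. For RRP9 the window is chr3:51941892-51941921, minus strand, and the E-box is at position -5. For GAR1 it is chr4:109815781-109815810, plus strand, with the E-box at position 32. The UTP4 window, chr16:69132621-69132650 on the plus strand, has the E-box at position -16. The PES1 window, chr22:30591880-30591909 on the minus strand, has it at position 14, and the MRTO4 window, chr1:19251807-19251836 on the plus strand, at position 15. A match of letters is a description of the reference and does not show binding.

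Differences from DMSO covered overlapping ranges with and without an E-box match. Over the 9 genes with a match that were above background on all 3 arrays, which leaves out RRP9, the median log2 difference from DMSO was -0.09 with the sorafenib probe (range -0.17 to 0.24) and -0.08 with sorafenib (-0.22 to 0.07). Over the 16 measured genes with a promoter in the table but no match, the medians were -0.04 with the sorafenib probe (-0.44 to 0.36) and 0.01 with sorafenib (-0.38 to 0.40). No test was made between these sets.

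The intensities of the set were close to each other on the 3 arrays. The sorafenib probe array held the highest value of 11 genes, the sorafenib array of 10 and the DMSO array of 11, and the lowest values were held by 10, 9 and 13 genes in the same order of arrays. By measured values, RRP9 included, 13 genes lay above DMSO with both compounds, 11 below it with both, and 8 lay on different sides. Both compounds are set against the same DMSO array, so noise in that array alone can put a gene on the same side. The same counts for all genes are not given, and a shared response was not tested. This limit holds wherever a gene is said to lie on the same side of DMSO with both compounds. The plot of intensities by gene shows the 3 symbols of most genes side by side or on top of each other.

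**Figure D1:**
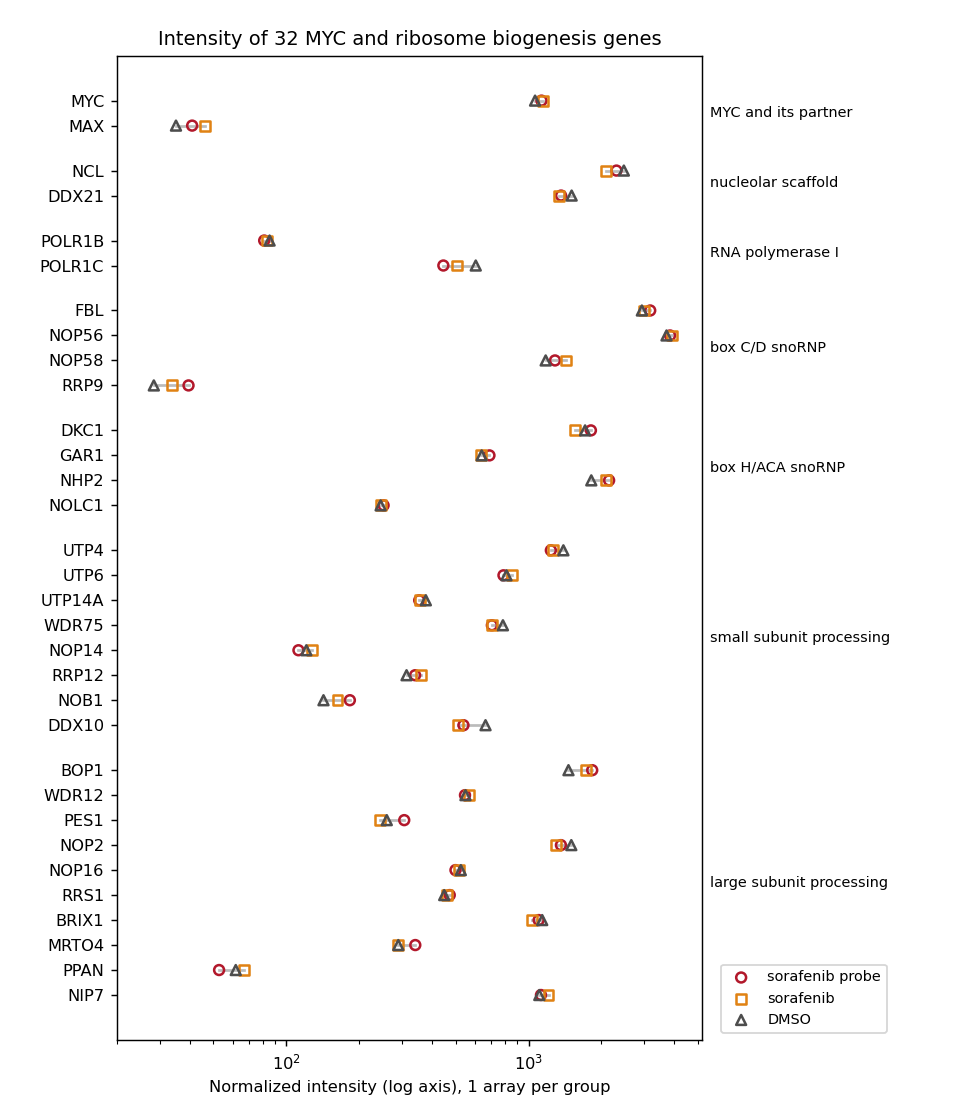
Normalized intensity (horizontal log axis) of 32 MYC and ribosome biogenesis genes (rows, grouped by role) with the sorafenib probe (circles), sorafenib (squares) and DMSO (triangles), 1 array each. The grey line joins the lowest and highest array of a gene, and levels of different genes are not comparable because each is read by its own array probe. The widest line is that of RRP9, with 39.5, 33.7 and 28.4, the last 2 of them not above background.

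The comparison of the sorafenib probe with DMSO asks whether the modified drug altered the transcripts of this pathway. The median log2 difference of the 32 genes was 0.03, with quartiles of -0.10 and 0.12, and 17 genes lay above 0 and 15 below. The median of all 10396 genes was 0.00. In RNA from a whole culture, fewer cells expressing a gene and less of its RNA per cell cannot be told apart. None of the 32 genes was at least 1.5-fold higher or lower, where 2.31% of all genes were higher and 1.98% were lower, and a count of 0 of 32 is near such shares. A gene not well above background on 1 of the arrays enters each count at 1.5-fold or 2-fold at its bound. At 2-fold the count was also 0, beside 0.25% of all genes higher and 0.164% lower. By measured values, which put RRP9 outside, 27 genes of the set (84.4%) lay within 1.2-fold of DMSO, against 63.7% of all genes. The set is brighter than most genes, with 25 of the 32 in the brightest of 3 equal groups of genes. In that group the standard deviation of the differences was 0.18 for the 25 genes and 0.23 for all genes. The median absolute difference there was 0.11 for the 25 genes and 0.14 for all genes. The shares within 1.2-fold cover genes of every brightness, so they do not compare genes of like brightness.

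The comparison of sorafenib with DMSO asks the same of the parent drug. The median log2 difference was 0.02, with quartiles of -0.14 and 0.12, and again 17 genes lay above 0 and 15 below. None of the 31 genes with a value was at least 1.5-fold higher or lower, beside 2.15% higher and 1.94% lower among all genes, and RRP9 gave no value because neither array was above background. None was 2-fold different, beside 0.164% of all genes higher and 0.115% lower. Within 1.2-fold of DMSO lay 29 of the 32 genes by measured values (90.6%), against 63.2% of all genes. In the brightest group the standard deviation was 0.17 for the 25 genes of the set and 0.24 for all genes. The median absolute difference in that group was 0.13 and 0.14. Without normalization between arrays, all genes shifted by a median of -0.16 with the sorafenib probe and -0.19 with sorafenib, and the set shifted with them (-0.13 and -0.19), so that 7 and 4 of its genes lay above 0. The set's distance from all genes was then 0.02 with the sorafenib probe and 0.00 with sorafenib, and every direction against DMSO given here is relative to the bulk of genes.

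**Figure D2:**
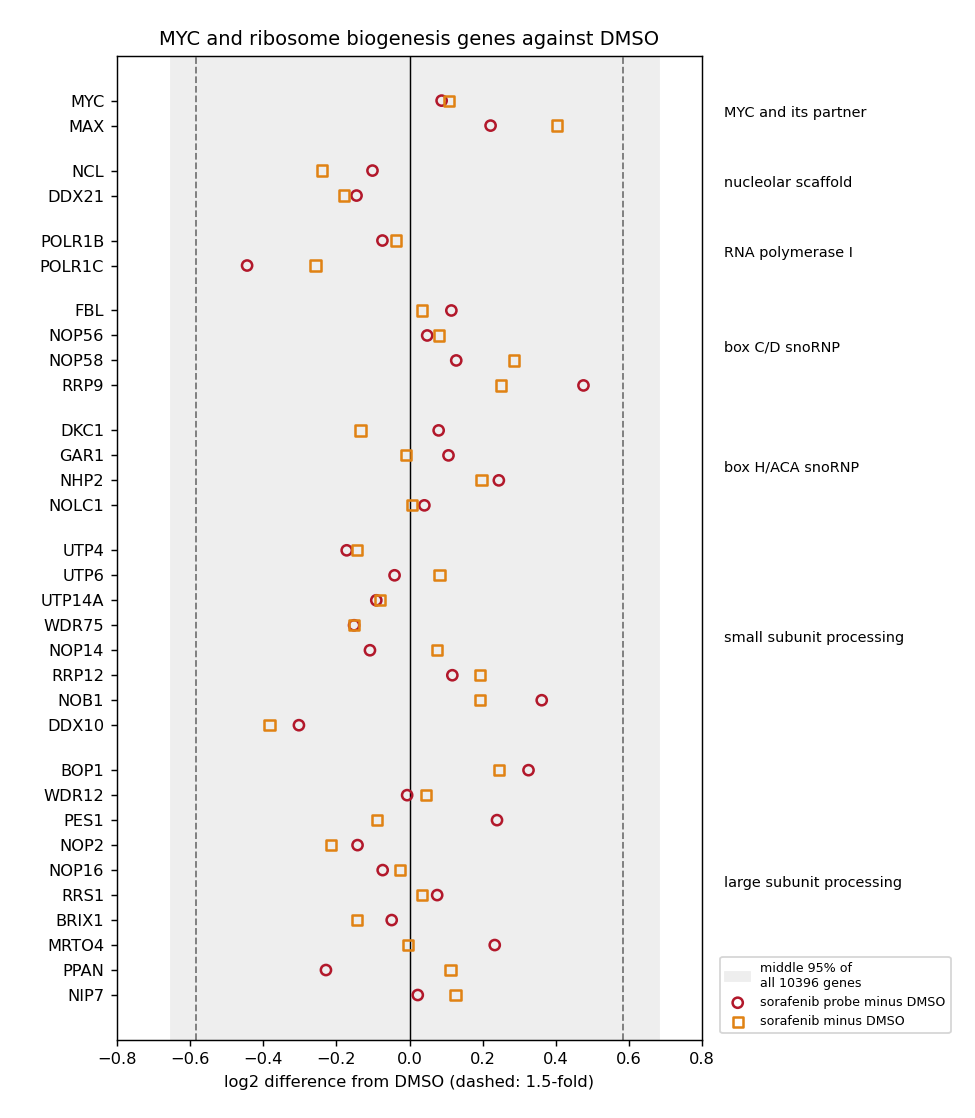
log2 difference from DMSO (horizontal axis) of the 32 genes, grouped by role, with the sorafenib probe (circles) and with sorafenib (squares). Dashed lines mark 1.5-fold and the grey band the middle 95% of all 10396 genes. Every symbol lies between the dashed lines, from -0.44 for POLR1C to 0.48 for RRP9, both with the sorafenib probe (RRP9 is above background there and not with DMSO).

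MYC itself had normalized intensities of 1131 with the sorafenib probe, 1146 with sorafenib and 1064 with DMSO, log2 differences from DMSO of 0.09 and 0.11 that turned to -0.06 and -0.10 without normalization between arrays. Its other array probe gave 0.04 with the sorafenib probe and -0.05 with sorafenib. The MYC signal was thus within 1.2-fold of DMSO with both compounds. MAX, the partner that MYC needs to bind DNA, was dim, with 40.9 with the sorafenib probe, 46.3 with sorafenib and 35.0 with DMSO, log2 differences of 0.22 and 0.40. The other kept array probe of MAX was above background on only 1 array and gave -0.12 and 0.32. Near the background the array probes of MAX did not agree in sign with the sorafenib probe.

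Among the nucleolar proteins, NCL (nucleolin, an abundant RNA-binding protein of the nucleolus) had 2306 with the sorafenib probe, 2094 with sorafenib and 2474 with DMSO. These are log2 differences of -0.10 and -0.24, while its other array probe gave 0.29 and 0.01, and the mean of both array probes was above DMSO with the sorafenib probe (0.09). No direction can therefore be given for NCL with the sorafenib probe. DDX21, an RNA helicase that takes part in RNA polymerase I transcription and rRNA processing, had 1362 with the sorafenib probe, 1331 with sorafenib and 1506 with DMSO, log2 differences of -0.14 with the sorafenib probe and -0.18 with sorafenib.

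RNA polymerase I was represented by 2 genes. POLR1C, a subunit shared by RNA polymerases I and III, had 445 with the sorafenib probe, 507 with sorafenib and 605 with DMSO. It was 1.36-fold lower with the sorafenib probe (log2 difference of -0.44), with a log2 difference of -0.26 with sorafenib, and its other array probe gave -0.23 and -0.29. POLR1C was the 1 gene of the set outside the middle 95% of its brightness group, here the brightest, against DMSO. This held with the sorafenib probe (-0.444, just past the lower limit of -0.436) and not with sorafenib. Any such range leaves some genes out by definition. POLR1B, the second-largest subunit of RNA polymerase I, had 81.0, 83.1 and 85.3 on the sorafenib probe, sorafenib and DMSO arrays, and both of its array probes lay below DMSO with both compounds (-0.07 and -0.21 with the sorafenib probe, -0.04 and -0.10 with sorafenib). The catalytic subunit gene POLR1A had 24.7, 27.0 and 22.6 on the same arrays and cannot be judged, since none of these is above background.

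The box C/D snoRNPs place methyl groups on ribosomal RNA. Their methyltransferase gene FBL (fibrillarin) had 3178 with the sorafenib probe, 3007 with sorafenib and 2936 with DMSO, log2 differences of 0.11 and 0.03. The core protein genes NOP56 and NOP58 had log2 differences of 0.05 and 0.13 with the sorafenib probe, and 0.08 and 0.28 with sorafenib. NOP58 had 1286, 1434 and 1177 on the sorafenib probe, sorafenib and DMSO arrays, and the difference with the sorafenib probe turned to -0.03 without normalization between arrays. NOP56 is less settled, because its further array probes gave -0.04 and -0.42 with the sorafenib probe and -0.12 and -0.21 with sorafenib. RRP9, a WD-repeat protein of the snoRNP that guides early cleavage of the precursor, was not well above background with DMSO or sorafenib. It was at least 1.13-fold higher with the sorafenib probe than with DMSO and at least 1.15-fold higher than with sorafenib, each a bound set by the lowest value above background on the dim array.

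The box H/ACA snoRNPs turn uridines of ribosomal RNA into pseudouridines. NHP2, a core protein of these particles and of telomerase, had 2150 with the sorafenib probe, 2081 with sorafenib and 1815 with DMSO, and was 1.18-fold and 1.15-fold higher with the compounds. All 4 array probes of NHP2 lay above DMSO, from 0.05 to 0.41 with the sorafenib probe and from 0.20 to 0.43 with sorafenib, although without normalization between arrays the brightest gave -0.02 with sorafenib. It was the 1 gene of the set with several array probes of which all lay above DMSO with both compounds. DKC1 (dyskerin, the pseudouridine synthase) had 1809, 1560 and 1712 on the sorafenib probe, sorafenib and DMSO arrays and so lay on different sides of DMSO with the 2 compounds (0.08 and -0.13). GAR1, another core protein, had log2 differences of 0.11 and -0.01, and its 4 array probes ran from -0.11 to 0.19 with the sorafenib probe and from -0.10 to 0.22 with sorafenib. NOLC1, a chaperone of snoRNPs in the nucleolus, had 0.04 and 0.01.

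Of the factors of the small subunit, 8 were measured, with medians of -0.10 with the sorafenib probe and 0.00 with sorafenib. DDX10, an RNA helicase of pre-rRNA processing, had 539 with the sorafenib probe, 509 with sorafenib and 664 with DMSO. It was 1.23-fold and 1.30-fold lower (log2 differences of -0.30 and -0.38), the lowest of the set with sorafenib. NOB1, the endonuclease that makes the last cut of the small subunit's RNA, had 183 with the sorafenib probe, 163 with sorafenib and 142 with DMSO. This is 1.28-fold higher with the sorafenib probe and 1.14-fold higher with sorafenib, where the value without normalization was -0.01. The DMSO array thus held the highest value of DDX10 and the lowest of NOB1.

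The remaining small subunit genes lay within 0.2 of DMSO on the log2 scale by their brightest array probes. UTP4, UTP14A and WDR75, parts of the small subunit processome that assembles on the precursor, lay below DMSO with both compounds, by -0.17, -0.09 and -0.15 with the sorafenib probe and -0.14, -0.08 and -0.15 with sorafenib. UTP6, of the same assembly, had -0.04 and 0.08. RRP12, which takes part in maturation and export of the particle, had 0.12 and 0.19. NOP14, a further processome factor, had -0.11 and 0.07 by its brightest array probe and 0.41 and 0.46 by its other one, which is the widest gap between array probes of a gene in the set with the sorafenib probe.

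The large subunit had 10 measured factors, with medians of 0.01 with the sorafenib probe and 0.02 with sorafenib. BOP1, PES1 and WDR12 form the PeBoW complex, which is needed to process the RNA of the large subunit. BOP1 had 1831 with the sorafenib probe, 1733 with sorafenib and 1461 with DMSO, and was 1.25-fold and 1.19-fold higher. PES1 had 307, 244 and 260 on the same arrays, log2 differences of 0.24 and -0.09. WDR12 had 547, 566 and 549, log2 differences of -0.01 and 0.04, and its other array probe gave -0.02 and 0.01. Of these 3 genes BOP1 was above DMSO with both compounds and WDR12 was closest to it.

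Other large subunit factors differed from DMSO by less than 0.25 on the log2 scale. The rRNA methyltransferase gene NOP2 had 1360 with the sorafenib probe, 1293 with sorafenib and 1501 with DMSO, log2 differences of -0.14 and -0.22. Its further array probes gave 0.18 and -0.10 with the sorafenib probe and 0.17 and -0.19 with sorafenib. MRTO4, which holds the place of a stalk protein during assembly, had 341, 289 and 290 on the sorafenib probe, sorafenib and DMSO arrays, so that the sorafenib probe array alone was higher. The assembly factor gene PPAN was dim, with 52.8 with the sorafenib probe, 66.8 with sorafenib and 61.8 with DMSO. The assembly factor genes NOP16, RRS1, BRIX1 and NIP7 had -0.07, 0.08, -0.05 and 0.02 with the sorafenib probe and -0.03, 0.03, -0.14 and 0.13 with sorafenib.

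Further array probes of the same gene give a check of the measurement, though not of the culture. The 14 genes with more than 1 kept array probe had 20 further array probes. Of these, 12 had the sign of the brightest one with the sorafenib probe against DMSO, 13 with sorafenib against DMSO and 10 between the compounds. Unrelated signs would match for about 10 of 20, so these counts give little backing to the directions of single genes. All array probes of a gene lay below DMSO for POLR1B, POLR1C, NOP16 and BRIX1 with both compounds. The same count for all genes is not given. The plot of array probes by gene shows array probes on both sides of DMSO with the sorafenib probe for MAX, NCL, NOP56, GAR1, UTP14A, NOP14 and NOP2.

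**Figure D3:**
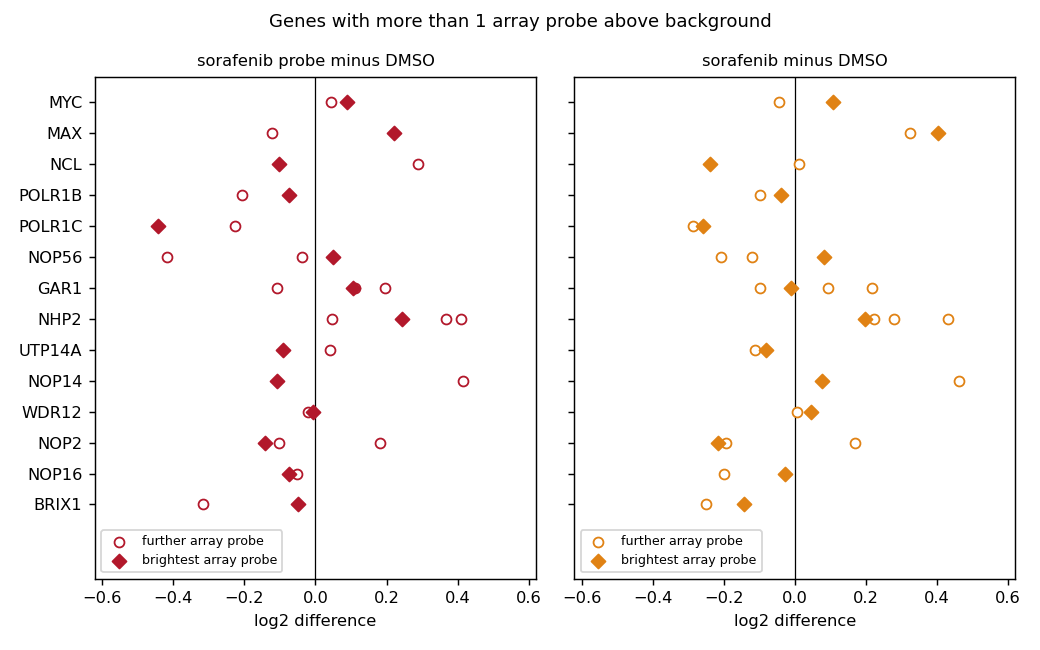
log2 difference from DMSO (horizontal axes) with the sorafenib probe (left) and sorafenib (right) for the 14 genes with more than 1 array probe above background. Filled diamonds are the brightest array probe and open circles the further ones. The 4 array probes of NHP2 lie to the right of 0 in both panels and both of POLR1C to the left.

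The comparison of the sorafenib probe with sorafenib, at the same labelled dose and time, asks whether the added groups changed the response. It is 1 pair of compounds, and no interval of the difference can be estimated from 1 array each. The median log2 difference of the 32 genes was 0.02 (all genes 0.00), with 16 above 0 and 16 below. None was at least 1.5-fold higher or lower, beside 0.712% of all genes higher and 0.529% lower, and at 2-fold the shares of all genes were 0.0192% and 0.0289%. Within 1.2-fold lay 30 of the 32 genes by measured values (93.8%), against 77.9% of all genes. In the brightest group the standard deviation was 0.12 for the 25 genes and 0.14 for all genes. The median absolute difference in that group was 0.08 and 0.09. Whether the compounds act alike on these genes cannot be told from single arrays.

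PES1, of the PeBoW complex, was 1.26-fold higher with the sorafenib probe than with sorafenib (307 and 244, log2 difference 0.33). It was the 1 gene of the set outside the middle 95% of its brightness group, here the brightest (-0.27 to 0.27). PES1 lies near the lower edge of that group, since NOLC1, with 252 and 246, falls in the middle group. The range of the middle group, -0.40 to 0.40, holds the value of PES1. Any such range leaves some genes out by definition. PPAN was 1.27-fold lower (52.8 with the sorafenib probe and 66.8 with sorafenib, log2 difference -0.34), within the range of -0.71 to 0.72 for dim genes. Next in size among genes above background on both arrays were MRTO4 with 0.24 and DKC1 with 0.21. On the lower side were POLR1C with -0.19, and MAX and NOP14 with -0.18 each. The other array probe of POLR1C gave 0.06, so that its difference between the compounds rests on 1 array probe. PES1, PPAN, MRTO4 and DKC1 have 1 kept array probe each, and no further array probe bears on them.

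**Figure D4:**
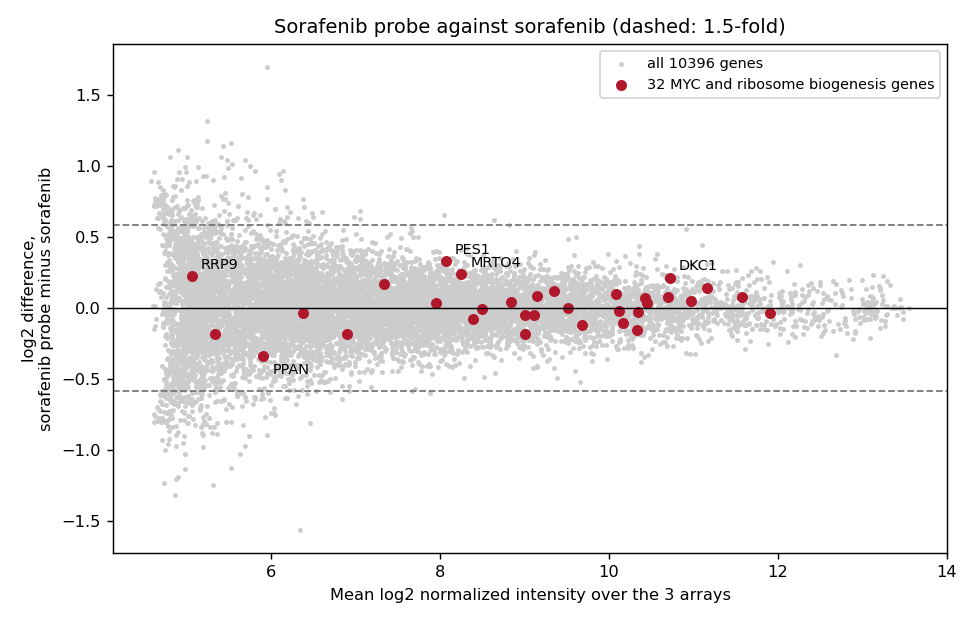
log2 difference of the sorafenib probe from sorafenib (vertical axis) against the mean log2 intensity over the 3 arrays (horizontal axis) for all 10396 genes (grey) and the 32 MYC and ribosome biogenesis genes (red). Dashed lines mark 1.5-fold. All 32 genes lie between them, from -0.34 for PPAN to 0.33 for PES1, and differences of all genes widen toward low intensity.

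Other genes of the pathway were described from lists by role. The cytosolic ribosomal proteins, the building blocks of the ribosome, had 68 measured genes with medians of 0.04 with the sorafenib probe and 0.03 with sorafenib. None was 1.5-fold different with the sorafenib probe. With sorafenib RPL7 was 1.51-fold lower (801 with the sorafenib probe, 573 with sorafenib and 864 with DMSO, named after its value was seen). It was the 1 gene of the 68 past 1.5-fold, beside 1.94% of all genes lower with sorafenib. RPS21, RPS18 and RPL36 had the largest mean differences from DMSO, 0.36, 0.38 and 0.40 with the sorafenib probe and 0.53, 0.46 and 0.44 with sorafenib. Array probes of ribosomal proteins can also match transcribed copies of these genes, so values of single genes are uncertain.

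Further processing factors lay around 0 as well. Over 47 further small subunit factors the medians were 0.01 with the sorafenib probe and -0.02 with sorafenib, and none was 1.5-fold different. BMS1, a GTPase of the processome, had 805, 813 and 590 on the sorafenib probe, sorafenib and DMSO arrays (0.45 and 0.46). Over 50 further large subunit factors the medians were -0.01 and 0.05. With the sorafenib probe NLE1 and FTSJ3 were lower by at least 1.5-fold, and with sorafenib NLE1 was lower and RRP1 higher. Among all genes 1.98% were lower with the sorafenib probe, and 1.94% were lower and 2.15% higher with sorafenib. NLE1, which acts in late assembly of the large subunit, had 35.7 with the sorafenib probe, 31.4 with sorafenib and 59.5 with DMSO. It was 1.67-fold lower with the sorafenib probe and at least 1.74-fold lower with sorafenib, where it was not well above background. RRP1 was 1.52-fold higher with sorafenib (94.6, 108 and 71.0 on the sorafenib probe, sorafenib and DMSO arrays). The rRNA methyltransferase gene FTSJ3 was 1.60-fold lower with the sorafenib probe (167, 217 and 267, named after its value was seen).

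The polymerases and the RNA exosome were also set beside the main set. Over 16 further genes of RNA polymerase I the medians were 0.04 with the sorafenib probe and 0.06 with sorafenib, and none was 1.5-fold different. RRN3, the initiation factor of RNA polymerase I, had 169 with the sorafenib probe, 140 with sorafenib and 196 with DMSO (-0.21 and -0.49). POLR2F, of the same list and of slightly larger mean difference, lay on the other side of DMSO. It had 1043, 1079 and 829 on the same arrays (0.33 and 0.38). Over 21 genes of RNA polymerase III, which makes small RNAs, the medians were 0.05 and 0.08. With the sorafenib probe 2 of these genes were at least 1.5-fold higher, beside 2.31% of all genes. The initiation factor gene BRF1 had 57.8, 49.3 and 35.1 on the sorafenib probe, sorafenib and DMSO arrays (0.72 and 0.49), and the subunit gene POLR3K had 243, 214 and 151 (0.69 and 0.50). Both lay in the order sorafenib probe, sorafenib, DMSO from high to low. The RNA exosome, which trims the precursor, had 11 measured genes with medians of 0.04 and 0.17, led by EXOSC5 with 0.44 and 0.48.

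Of other snoRNP genes 10 were measured, with medians of -0.06 with the sorafenib probe and 0.09 with sorafenib, and the assembly helicase gene RUVBL2 had 0.41 and 0.32. Of 13 measured relatives and regulators of MYC, 10 were above background on all 3 arrays. By measured values 11 of the 13 lay above DMSO with each compound. Of all 10396 genes, 5187 lay above DMSO with the sorafenib probe and 5137 with sorafenib. MYCL and MXI1 enter these counts although they were above background on the sorafenib array only. A shared response of the 13 genes was not tested. The medians were 0.17 with the sorafenib probe, which turned to -0.01 without normalization between arrays, and 0.28 with sorafenib. With bounds in place of the values of dim genes they were 0.13 and 0.12. FBXW7, part of a ubiquitin ligase that marks MYC for breakdown, had 111, 132 and 95.5 on the sorafenib probe, sorafenib and DMSO arrays (0.21 and 0.47). Over 25 genes often listed as MYC targets outside ribosome biogenesis, the medians were 0.06 and 0.01, and none was 1.5-fold different. RCC1, an exchange factor of nuclear transport, had the largest mean difference of these, 0.55 and 0.32. In the plot of medians the role groups and further lists lie within 0.3 of 0 in all 3 comparisons.

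**Figure D5:**
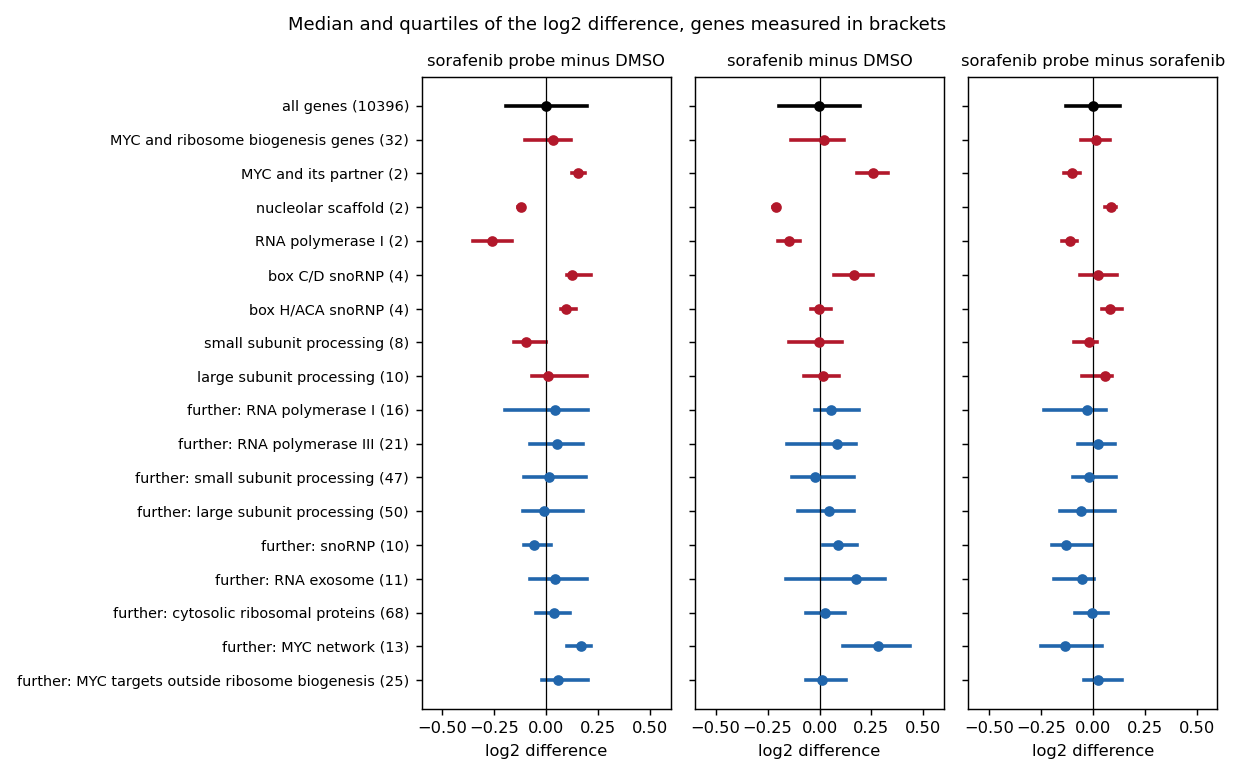
Median (points) and quartiles (lines) of the log2 difference (horizontal axes) for all genes (black), the 32 genes and their role groups (red) and further lists of the pathway (blue), with the number of measured genes in brackets. Panels show the sorafenib probe and sorafenib against DMSO, and the sorafenib probe against sorafenib. The medians of all 32 genes are 0.03, 0.02 and 0.02, and the median farthest from 0 in the first panel is that of RNA polymerase I (-0.26, 2 genes).

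As a check of the label, 3 of 13 annotated hepatocyte and hepatoma markers were above background (ALB, KRT8 and KRT18). Their summed intensity was 3227 with the sorafenib probe, 3290 with sorafenib and 3439 with DMSO. Most of it was KRT8, with 2814, 2814 and 3019 on the same arrays, while ALB was dim with 49.6, 38.7 and 48.1. AFP, APOA1, APOA2, APOB, TTR, SERPINA1, FGB, TF, AHSG and GPC3 were not well above background on any array. Markers of other cell types were above background for 2 of 4 leukocyte genes (CD14 and LYZ), 0 of 3 endothelial genes and 1 of 4 fibroblast genes (COL1A1). The leukocyte sum was 209, 227 and 149 on the sorafenib probe, sorafenib and DMSO arrays, and the fibroblast value was 36.5, 24.0 and 24.9. Most of the leukocyte sum was CD14 alone, with 173, 198 and 117. LYZ and COL1A1 were above background on the sorafenib probe array only, so their values on the other arrays are not measured levels. Their part in the results was not tested. From 32.3% to 32.8% of the 47323 array probes were above background on the 3 arrays.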

How the data were processed

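RNA of PLC-PRF-5 cells treated with the sorafenib probe, sorafenib or DMSO was measured on 1 Illumina beadchip array each. The authors deposited intensities in 2 tables. The table labelled non-normalized is in fact quantile normalized (98.2% of the sorted values above its floor of 1 were equal on all 3 arrays), and it carries a deposited detection p-value for each array probe, in steps of 1 in 770. The other has background subtracted and no scaling between arrays, and was used here. The scanner software and genome build were not given in the sources used here.

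With limma 3.58.1 (R 4.3.3), normexp correction based on the detection p-values (offset 16), quantile normalization and a log2 scale were applied to the deposited intensities. Python 3.11.15, numpy 2.4.6 and pandas 2.3.3 did the rest. The 17427 array probes that passed detection under 0.01 on 1 array or more were kept, and the brightest stood for a gene. Names came from the platform annotation, through Entrez identifiers in RefSeq's GRCh38.p14 table (99.9% of 30113 array probes with 1 symbol matched). A gene dim on 1 array of a comparison got a bound, with its dim value raised to the lowest intensity above background on that array if it was below it. The offset shrinks differences of dim genes. Described most fully were MYC and MAX, any gene of the set past 1.5-fold, the 3 highest and lowest in each comparison and the most different of each role group, and in further lists up to 3 leading genes. The genes and lists were picked by name and role, but with earlier results of these data known. Normalization and differences were tested on simulated arrays, with changes set only in brighter genes of 1 array probe. Dim genes, bounds and the choice among array probes were not covered by that test. Precision is limited by the number of arrays, 1 per treatment.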

Additional observations from a re-analysis of the deposited data

How the results depend on the processing

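The median of the 32 genes and the counts of genes at least 1.5-fold higher or lower were recomputed with the authors' quantile normalized intensities, an offset of 50, scaling to a common median, no normalization between arrays, a detection limit of 0.05, no detection limit, only genes above background on all 3 arrays, a gene's mean over its kept array probes, and, for the counts, 2-fold. Without normalization between arrays the median against DMSO was -0.13 with the sorafenib probe and -0.19 with sorafenib, and 1 gene was at least 1.5-fold lower with each compound, POLR1C (-0.61) with the sorafenib probe and DDX10 (-0.61) with sorafenib. All genes moved by about as much, with medians of -0.16 and -0.19. With the authors' quantile normalized intensities 1 gene was at least 1.5-fold higher with sorafenib than with DMSO, MAX (0.66), which is dim. In all other settings the counts stayed at 0 and the medians moved by less than a standard error of a median. This standard error was computed from the standard deviation of the difference between the compounds' arrays and the number of genes. It treats genes as independent and is not a spread between cultures. For the 14 genes named by rule, 320 of 333 recomputed differences kept their sign, and 8 of the 13 exceptions arose without normalization between arrays. Of the medians of role groups 159 of 168 kept their sign, and of those of further lists 193 of 216. Without normalization between arrays only 10 of 27 medians of further lists kept their sign. Differences of genes near the background are limited by their signal, and those of the set's dim genes, MAX, RRP9 and PPAN, are the least certain. No paired analysis was possible because each group has 1 array.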
